A study of Mus musculus with 9 samples.

Results

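The cytosolic ribosomal protein genes of the mouse retina, which encode the protein subunits of the cell's general translation machine, were taken from bulk RNA-seq counts by gene name. A row was a member if it was annotated as protein coding, had at least 90 counts summed over the 9 libraries and carried a name of a set form. That form was Rpl or Rps, a number, and optionally an a, x or l and a further digit. Rplp0, Rplp1, Rplp2 and Rpsa were also taken, and kinase names were not. This rule found 82 genes among 26683 in the table. It took 31 genes of the small subunit, 43 of the large subunit, the 3 stalk proteins Rplp0, Rplp1 and Rplp2, and 5 paralogs (Rpl3l, Rpl6l, Rpl7l1, Rpl22l1 and Rps27l). Near the threshold of 90 counts, Rpl3l stood inside with 145 counts, and Rpl32l with 48 and Rpl39l with 7 stood outside. Rpl36al (8627 counts), Rpl37rt (6281) and Rps27rt (809) had counts above the threshold, but their names did not have the set form. All 82 members also passed the filter on low counts that left 17362 genes for testing, so no member was lost to it.

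The retinas were collected on postnatal day 17 from 3 groups of 3 libraries each. Normoxic mice had not been through the oxygen model, and the labels do not say whether their eyes were injected. The other mice had OIR, oxygen-induced retinopathy: pups are kept in high oxygen, and after their return to room air the retinal vessels regrow abnormally. On postnatal day 15 they received into the vitreous either saline (PBS) or a hydrogel called PCC1/PHCF, here Gel, which the series title describes as releasing procyanidin C1. No gel without the drug was in the comparison, so drug and carrier cannot be told apart. The labels give no strain or sex and do not say that the libraries came from separate animals, so the p-values measure only the spread between these libraries.

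Each ribosome holds 1 copy of most of these proteins, and their genes are known to be expressed together at high levels in nearly every cell. Their messenger RNAs typically begin with a C followed by an unbroken run of pyrimidines, the 5′ terminal oligopyrimidine (TOP) tract, through which mTORC1 and the protein LARP1 control how much of each messenger is translated or kept in store. In the retina, photoreceptors renew their outer segments throughout life and have a high demand for protein synthesis. In bulk tissue, fewer cells of a type and less RNA per cell cannot be told apart.

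The start of transcription is where the TOP tract lies, so it was read for the members that matched an entry in RefSeq's promoter table for the build GRCm38.p6. That table gives 250 bases before and 50 after each listed start, and 61 of the 82 members matched. A C with at least 4 further pyrimidines directly from a listed start was found in 13 of the 61 genes (21.3%), against 3.01% of all 27025 genes in the table. The 7 members below show this tract, in capitals, inside 15 bases before and 15 after the start.
Rps27 (chr3:90213634-90213663, minus strand): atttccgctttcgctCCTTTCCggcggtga
Rps6 (chr4:86857353-86857382, minus strand): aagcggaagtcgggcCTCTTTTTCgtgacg
Rpl38 (chr11:114668565-114668594, plus strand): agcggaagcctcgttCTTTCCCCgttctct
Rpl35 (chr2:39005117-39005146, minus strand): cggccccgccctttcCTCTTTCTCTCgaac
Rpl35a (chr16:33056467-33056496, plus strand): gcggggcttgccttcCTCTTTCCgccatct
Rpl15 (chr14:18270972-18271001, minus strand): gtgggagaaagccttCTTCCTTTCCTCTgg
Rplp2 (chr7:141447636-141447665, plus strand): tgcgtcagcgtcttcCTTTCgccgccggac

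The other 48 matched members had no such tract directly at a listed start. The 3 below are shown for contrast, because Rpl39 had one of the largest differences between groups, Rpl10 one of the smallest p-values and Rpl4 one of the smallest differences. An annotated start can lie a few bases from the one a tissue uses, so a missing tract says only that these letters do not begin at this base.
Rpl39 (chrX:37085208-37085237, minus strand): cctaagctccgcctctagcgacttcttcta
Rpl10 (chrX:74270801-74270830, plus strand): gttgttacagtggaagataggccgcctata
Rpl4 (chr9:64173372-64173401, plus strand): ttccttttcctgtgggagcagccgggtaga

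The letters CCGGAAG, searched on both strands as a match to GABP and other ETS factors, stood in the windows of 25 of the 61 members (41.0%). They stood in 9.93% of all genes in the table and in 16.6% of the 13434 tested genes that were not members. The letters AAGATGGC, a match to YY1 searched likewise, were in 6 of the 61 members (9.84%). They were in 3.19% of all genes and 4.42% of the tested other genes. TATAAA was in 7 members (11.5%), in 15.7% of all genes and in 9.44% of the tested other genes. GGGCGG, a match to SP1, was in 38 members (62.3%), in 38.2% of all genes and in 62.9% of the tested other genes. These are matches of letters and not measured binding. The 4 stretches below show the CCGGAAG match, or its reverse complement, in capitals; they lie 20, 91, 39 and 23 bases before the start of their genes.
Rpl38 (chr11:114668549-114668578, plus strand): gggttaaccgtCCGGAAGcggaagcctcgt
Rps6 (chr4:86857440-86857469, minus strand): ttaatctacgcCCGGAAGtaacgcccctct
Rpl19 (chr11:98026660-98026689, plus strand): acttagcgtgaCTTCCGGctacccagagga
Rpl37 (chr15:5116579-5116608, plus strand): accaagacccgCCGGAAGtagtttcctggg

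The libraries held between 29324142 and 35663470 gene counts. The 8 rod photoreceptor markers summed to 46163 to 66807 CPM (counts scaled to 1000000 a library) in the 9 libraries, so the defining markers of the labelled tissue were present throughout. The library PBS 3 stood apart. Relative to PBS 1 and PBS 2, its short genes were high and its long genes low: over the 17280 other tested genes, Spearman's rho between gene length and that difference was -0.48. The members are short, with a median gene model of 850.5 bases against 3663 in the other tested genes. Group comparisons of the whole set are therefore also given without PBS 3, and other values by library where PBS 3 could set them. The trend was not confined to PBS 3. Against the Normoxic mean, rho over the other tested genes was -0.44 in PBS 3, -0.26 in Gel 2, -0.21 in Gel 3 and 0.12 in Gel 1. It was -0.07 in PBS 1 and -0.05 in PBS 2.

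Levels per length of the gene spanned a wide range among the members. Over the 9 libraries, the mean FPKM of the 77 members without the paralogs had a median of 202.9 and ran from 30.6 (Rps15a) to 796 (Rplp1), a 26.0-fold range. The 3 highest were Rplp1, a protein of the stalk that recruits elongation factors, at 796 FPKM, Rpl41, which encodes a very short basic peptide, at 773 FPKM, and Rps29 of the small subunit at 761 FPKM. The lowest were 3 paralogs: Rpl3l, known as the striated muscle form of Rpl3, at 0.268 FPKM, Rps27l at 3.58 FPKM and Rpl6l at 11.8 FPKM. FPKM is a level per length and the order of members depends on the gene models used, since Rps15a, whose model of 5136 bases is the longest among the members, was also the lowest of the 77.

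Within the Normoxic group the 3 values of most members lay close together, and no value for other genes is set beside this. The ratio of the highest to the lowest of the 3 CPM values had a median of 1.08 over the 82 genes and exceeded 1.3 in 4 of them, Rpl36a, Rpl3l, Rpl39 and Rps27a. Rps27a, a fusion of ubiquitin with a small subunit protein, had the widest spread, with 68.3, 101 and 107 CPM. These 4 genes were picked after their values were seen.

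All 82 members together took 1.23%, 1.19% and 1.19% of the gene counts in Normoxic 1, 2 and 3. In PBS 1, 2 and 3 the share was 1.48%, 1.42% and 2.92%. In Gel 1, 2 and 3 it was 1.19%, 1.81% and 1.74%. Every PBS library was above every Normoxic library, while Gel 1 lay at the Normoxic level and Gel 2 and Gel 3 between PBS 1 and PBS 3. The 95% Wilson interval of each share was narrow, for example 2.91% to 2.92% in PBS 3 (counting error only).

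**Figure D1:**
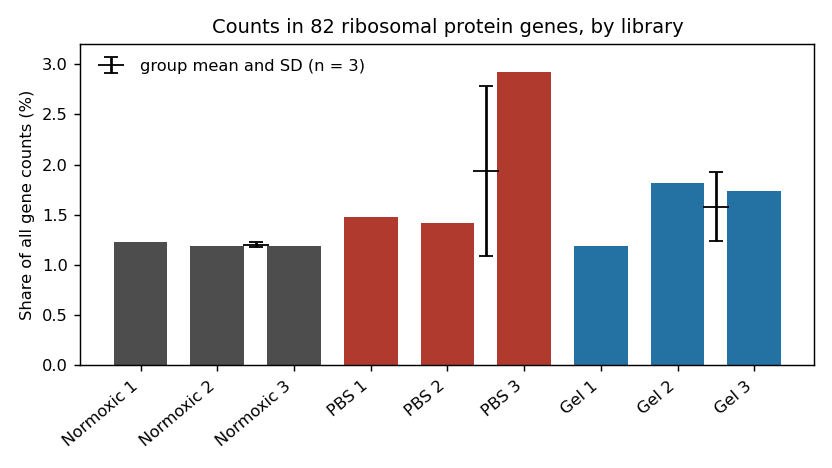
Share of all gene counts (%, y axis) in the 82 ribosomal protein genes in each of the 9 libraries (bars, from 0); the horizontal mark and whiskers are the group mean and SD over 3 libraries. PBS 3 stands at 2.92% and Gel 1, at 1.19%, beside the Normoxic libraries.

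The mean share was 1.20% ± 0.026 (SD, n = 3) in Normoxic, 1.94% ± 0.849 in PBS and 1.58% ± 0.342 in Gel. PBS exceeded Normoxic by 0.735 percentage points (exact two-sided permutation test, p = 0.1, the smallest that 3 libraries against 3 allow; 0.3 adjusted over the 3 comparisons). Without PBS 3 the difference was 0.245 percentage points, with both PBS libraries above the Normoxic range. Gel exceeded Normoxic by 0.377 percentage points (exact permutation p = 0.3, adjusted 0.45) and stood 0.358 points below PBS, a difference of -0.358 (exact permutation p = 0.8, adjusted 0.8). The Gel range overlapped that of both other groups.

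The 82 genes varied together, and the order of the libraries was nearly the same from gene to gene. PBS 3 had the highest CPM of all 9 libraries in 82 of 82 members. Gel 2 and Gel 3 were above PBS 1 in 80 and 81 members, and above PBS 2 in 82 and 82. PBS 1 was above Normoxic 1, 2 and 3 in 81, 82 and 82 members, and PBS 2 in 80, 81 and 80. Gel 1 was above the 3 Normoxic libraries in 22, 41 and 47 members, so it lay among them. Gel 1 and Gel 2, libraries of the same treatment, differed in the same direction in 82 of 82 members. These libraries also differed by gene length. Spearman's rho between length and Gel 1 minus the mean of Gel 2 and 3 was 0.31 over the other tested genes and 0.22 over the members.

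**Figure D2:**
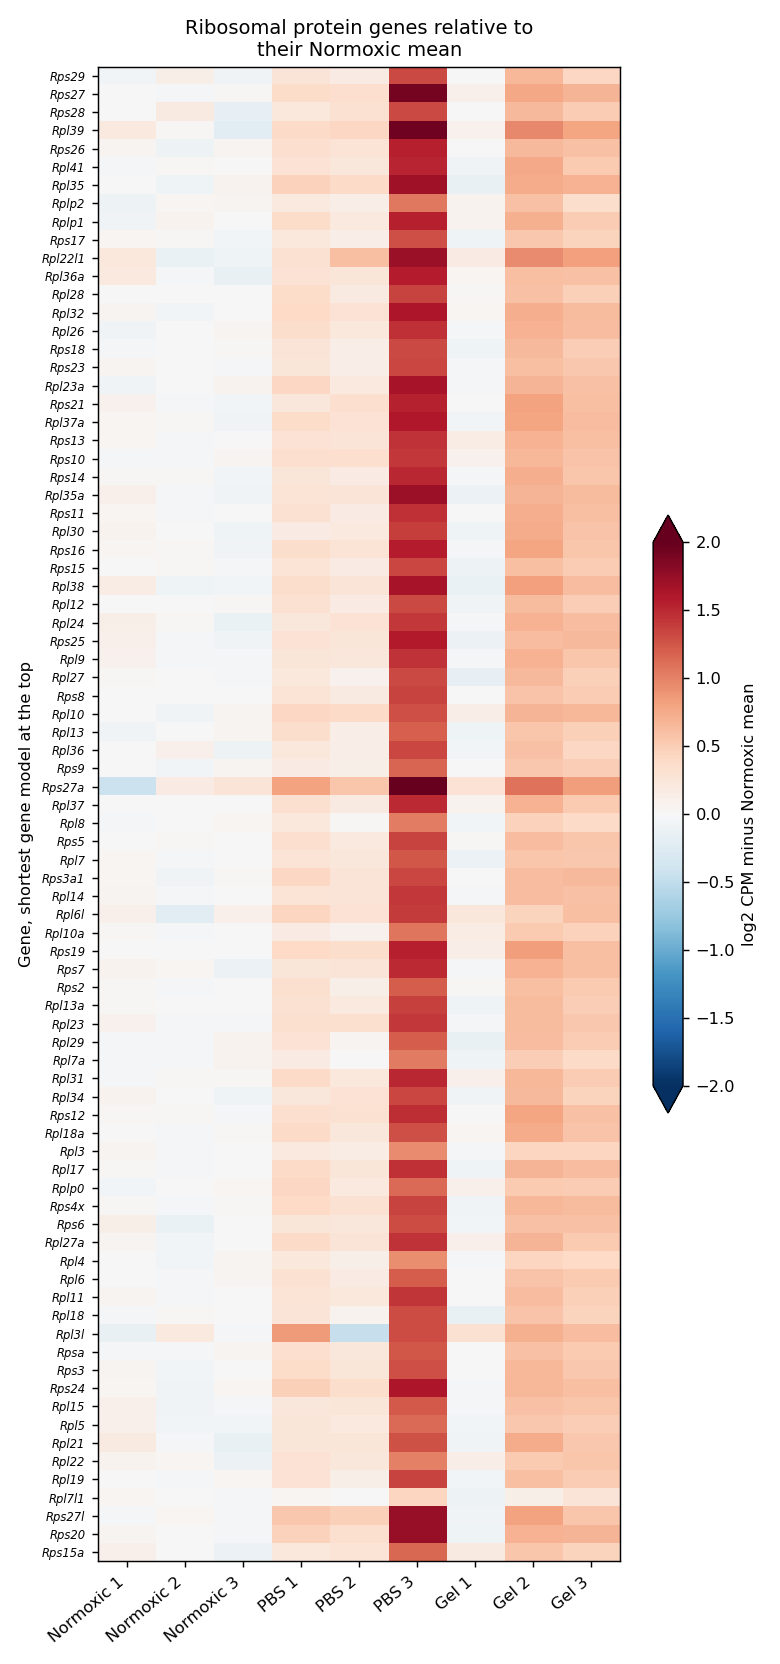
log2 CPM of each of the 82 members (rows, shortest gene model at the top) minus its Normoxic mean, in the 9 libraries (columns); red is higher and blue lower. The PBS 3 column is red throughout, PBS 1 and 2 are faintly red, Gel 2 and 3 are in between, and Gel 1 resembles the Normoxic columns.

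The first comparison, PBS against Normoxic, asks what OIR with a saline injection changes. All 82 members had a positive log2 fold change, with a median of 0.75 (a 1.69-fold higher level) against 0.01 over all 17362 tested genes. None of them passed edgeR's quasi-likelihood test at an adjusted p of 0.05: the smallest adjusted p was 0.0664, for Rps27a, although 78 of 82 had an unadjusted p under 0.05. Over all tested genes, 4.31% were called higher and 2.03% lower in this comparison. Of all tested genes, 12.3% had an unadjusted p under 0.05 and a positive difference, and 9.03% had one and a negative difference. All 3 PBS values exceeded all 3 Normoxic values in 79 of 82 members, against 14.9% of all tested genes; the exceptions were Rpl3l, Rpl7a and Rpl7l1.

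The absence of calls depended on the method. DESeq2 called 17 members higher where it called 6.70% of all genes higher. edgeR called 15 where the trend of each library with gene length was removed (5.66% of all genes called higher), and 18 where genes with low counts were kept (3.34%). In these 3 fits 8 members were called each time: Rpl10, Rpl22l1, Rpl32, Rpl35, Rps10, Rps19, Rps27a and Rps3a1. Removing the length trend lowered the median of the members to 0.45 on the log2 scale. limma-voom called 0 members where it called 3.98% of all genes higher. It gave 56 members an unadjusted p under 0.05, against 11.3% of all genes in that direction.

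PBS 3 set most of the size and of the spread. Without it the median over members was 0.26 on the log2 scale, with 82 of 82 still positive. By edgeR 13 had an unadjusted p below 0.05, against 9.55% of all genes in that direction. None passed edgeR's threshold (smallest adjusted p 0.115), where 4.10% of all genes were called higher. Members had a median 1.21-fold higher CPM in PBS 1 and 2 than in Normoxic, from 1.03-fold in Rpl7l1 to 1.59-fold in Rps27a. In PBS 3 the median was 2.46-fold, from 1.29-fold in Rpl7l1 to 3.79-fold in Rps27a.

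**Figure D3:**
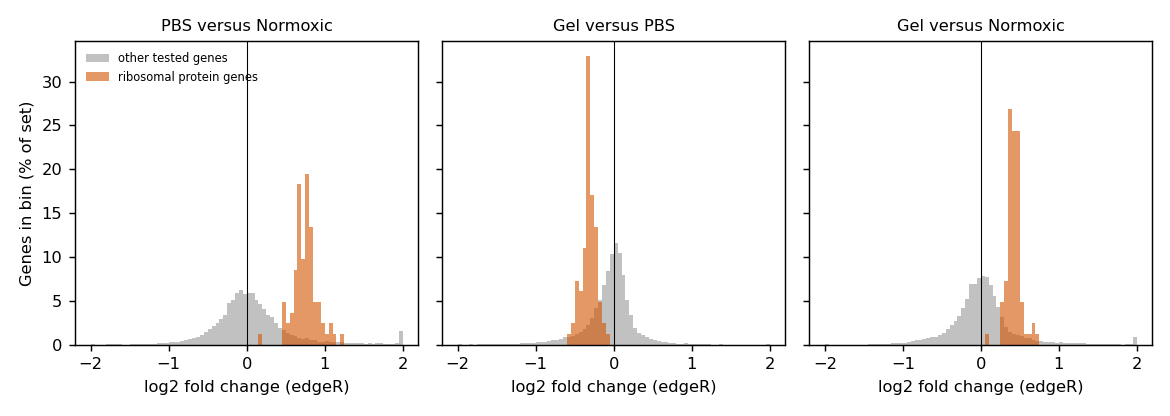
Distribution of edgeR log2 fold changes (x axis; values beyond -2 or 2 are drawn in the end bins) in the 3 comparisons, as the percentage of each set per bin, for the 82 members (orange) and the 17280 other tested genes (grey). The members form a narrow peak with medians of 0.75, -0.32 and 0.43, away from the peak of the other genes near 0.

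Among the 31 small subunit genes, log2 fold changes in PBS against Normoxic ran from 0.57 to 1.24 around a median of 0.77. Rps27a read 68.3, 101 and 107 CPM in Normoxic, 157, 136 and 349 CPM in PBS, and 110, 187 and 162 CPM in Gel. Its PBS values were all above its Normoxic values, by 1.24 ± 0.35 (SE) on the log2 scale (edgeR, adjusted p = 0.0664), and its low Normoxic 1 value widened that gap. Rps27, a zinc finger protein of the small subunit whose TOP tract is shown above, read 61.2, 58.8 and 60.5 CPM in Normoxic, 77.1, 77.6 and 218 CPM in PBS, and 64.5, 101 and 96.2 CPM in Gel. PBS 1 and PBS 2 differed by under 1 CPM in this gene, and PBS 3 was 2.82-fold above their mean, the widest such gap of any member.

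Rps24 and Rps19, both mutated in Diamond-Blackfan anemia, stood close to the threshold of the test. Rps24 read 165, 151 and 161 CPM in Normoxic, 221, 208 and 466 CPM in PBS, and 156, 246 and 241 CPM in Gel (PBS against Normoxic 0.93 ± 0.30 on the log2 scale, edgeR adjusted p = 0.0957). Rps19 read 78.8, 77.3 and 76.1 CPM in Normoxic, 102, 101 and 218 CPM in PBS, and 84.3, 135 and 118 CPM in Gel (0.89 ± 0.29, adjusted p = 0.105). In both genes the 3 PBS values lay above the Normoxic ones, and Gel 1 of Rps24 lay inside the Normoxic range.

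Rps6, whose protein is the S6 kinase substrate used to read mTORC1 activity, read 187, 155 and 171 CPM in Normoxic, 202, 204 and 405 CPM in PBS, and 164, 251 and 256 CPM in Gel. Rpsa, the laminin receptor precursor that is also a small subunit protein, read 328, 322 and 340 CPM in Normoxic, 414, 397 and 749 CPM in PBS, and 326, 486 and 473 CPM in Gel. Rps14, known for its loss in the 5q- form of myelodysplasia, had log2 fold changes of 0.78 ± 0.32 in PBS and 0.45 ± 0.32 in Gel against Normoxic. Rps4x, the X-linked form of its protein, had 0.77 ± 0.27 in PBS, and Rps29, the shortest gene model at 322 bases, 0.68 ± 0.28. The gaps in Rps6 and Rpsa had the same shape as in Rps19, with Gel 1 beside Normoxic.

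Among the 43 large subunit genes outside the stalk, log2 fold changes in PBS against Normoxic ran from 0.47 to 1.10 around a median of 0.72. Rpl10, which is needed for the last step of 60S subunit maturation, read 115, 107 and 115 CPM in Normoxic, 149.9, 151 and 263 CPM in PBS, and 123, 176 and 178 CPM in Gel. All 6 libraries of OIR eyes were above the Normoxic range in this gene, and its PBS 3 value stood out less than in most members (0.76 ± 0.23 on the log2 scale, edgeR adjusted p = 0.0802). Rpl39, a small protein that lines the exit tunnel of the nascent chain, read 53.8, 47.0 and 39.4 CPM in Normoxic, 60.4, 63.1 and 171 CPM in PBS, and 48.9, 88.5 and 80.8 CPM in Gel. Its difference of 1.10 ± 0.38 (adjusted p = 0.124) was the largest of the large subunit.

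Rpl5 and Rpl11, which with 5S RNA bind MDM2 and so couple ribosome assembly to p53, had log2 fold changes of 0.59 ± 0.24 and 0.76 ± 0.29 in PBS against Normoxic. Rpl11 read 165, 152 and 155 CPM in Normoxic, 189, 188 and 408 CPM in PBS, and 157, 235 and 220 CPM in Gel. Rpl38, named for its part in the translation of Hox messages, read 60.4, 50.3 and 51.1 CPM in Normoxic, 68.8, 66.1 and 161 CPM in PBS, and 48.8, 92.6 and 82.5 CPM in Gel (0.90 ± 0.34 for PBS). Rpl41 and Rpl13a, the latter also known from the GAIT silencing complex, stood at 0.81 ± 0.32 and 0.72 ± 0.28. None of these passed the test.

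The smallest differences among large subunit genes were in Rpl4, Rpl7a and Rpl3, all core proteins of the 60S subunit. Rpl4 read 403, 377 and 404 CPM in Normoxic, 457, 439 and 721 CPM in PBS, and 388, 518 and 524 CPM in Gel, a difference of 0.47 ± 0.20 between PBS and Normoxic. Rpl3, next to the catalytic centre of the ribosome, read 455, 419 and 425 CPM in Normoxic, 497, 490 and 798 CPM in PBS, and 419, 573 and 584 CPM in Gel (0.48 ± 0.21). Rpl7a had 0.47 ± 0.24, and its PBS 2 value of 190.4 CPM lay inside its Normoxic range of 182 to 195 CPM. In Rpl4 and Rpl3, PBS 3 was highest and Gel 1 lay within or below the Normoxic range.

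In all 3 stalk proteins PBS 3 was the highest library, and every Gel value lay above the Normoxic range, as in 19 of the 82 members. Gel 2 was above Gel 3 in Rplp1 and Rplp2 but not in Rplp0. Rplp1 read 262, 283 and 268 CPM in Normoxic, 349, 319 and 766 CPM in PBS, and 284, 436 and 385 CPM in Gel. Rplp2 read 80.1, 87.1 and 87.8 CPM in Normoxic, 96.8, 95.7 and 169 CPM in PBS, and 89.4, 124 and 108 CPM in Gel. Rplp0 read 326, 335 and 341 CPM in Normoxic, 444, 392 and 701 CPM in PBS, and 359, 471 and 478 CPM in Gel. The log2 fold changes in PBS against Normoxic were 0.84 ± 0.31, 0.52 ± 0.22 and 0.64 ± 0.21, and the difference among the 3 was not tested.

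The 5 paralogs spanned nearly the whole range of the set. Rpl7l1, a homolog of Rpl7, had the smallest difference of any member, with 46.7, 44.5 and 43.0 CPM in Normoxic, 45.7, 46.1 and 57.6 CPM in PBS, and 41.4, 47.3 and 53.6 CPM in Gel (0.17 ± 0.14 on the log2 scale for PBS). Rpl7 itself stood at 0.66 ± 0.26, so that Rpl7l1 made up 6.06% to 6.35% of the summed FPKM of the pair in Normoxic, 5.29%, 5.39% and 3.62% in PBS 1, 2 and 3, and 6.25%, 4.65% and 5.17% in Gel 1, 2 and 3. All 3 PBS shares lay below the Normoxic range, while that of Gel 1 lay inside it. Rpl22l1, which can replace Rpl22 in the ribosome, read 16.4, 12.6 and 13.0 CPM in Normoxic, 17.2, 21.6 and 44.2 CPM in PBS, and 15.6, 26.2 and 24.7 CPM in Gel. Its difference in PBS against Normoxic was 1.01 ± 0.33 (adjusted p = 0.105), against 0.55 ± 0.20 for Rpl22.

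Per length (FPKM), Rpl22l1 was 38.7% to 44.0% of the pair with Rpl22 in Normoxic. It was 42.0%, 47.8% and 53.8% of the pair in the PBS libraries, and 42.2%, 48.9% and 46.1% of it in the Gel libraries. The PBS 1 and Gel 1 shares lay inside the Normoxic range and the other 4 above it. Rps27l, a p53 target, read 6.68, 6.86 and 6.50 CPM in Normoxic, 9.68, 9.51 and 21.6 CPM in PBS, and 6.33, 11.5 and 9.91 CPM in Gel (1.05 ± 0.33, adjusted p = 0.0928). It stayed between 1.22% and 1.56% of the pair with Rps27 in all 9 libraries. Rpl3l, at under 1 CPM everywhere, had 0.669, 0.239 and 0.900 CPM in PBS and was too sparse to order the groups.

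The second comparison, Gel against Normoxic, asks how far eyes given the hydrogel stood from eyes outside the model. All 82 members were positive, with a median log2 fold change of 0.43 (1.34-fold) against 0.00 over all genes. edgeR called 0 members (smallest adjusted p 0.371, Rpl10) and DESeq2 0; 1 member had an unadjusted p under 0.05 by edgeR and 3 by DESeq2. In this comparison edgeR called 1.12% of all tested genes higher and 0.288% lower, and DESeq2 3.23% higher. An unadjusted p under 0.05 with a positive difference was found in 7.19% of all tested genes by edgeR and 7.97% by DESeq2. The 3 Gel values exceeded the 3 Normoxic values in 19 of 82 members, against 11.1% of all tested genes. The largest differences were in Rps27a (0.74 ± 0.35), Rpl22l1 (0.68 ± 0.33) and Rpl39 (0.65 ± 0.38), and Rpl7l1 again had the smallest (0.10 ± 0.14).

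These counts changed with PBS 3, although that library is in neither group. Without PBS 3 the median stayed at 0.43 on the log2 scale. By edgeR 80 members had an unadjusted p under 0.05, against 10.7% of all genes in that direction. edgeR called 5 (smallest adjusted p 0.0367, Rps13), where 2.80% of all genes were called higher. Removing the length trend as well gave 19 called members with a median of 0.34, where 3.43% of all genes were called higher. Leaving out Gel 1, which lay at the Normoxic level, raised the median to 0.60. edgeR then called 0 members, where 203 of 17686 tested genes were called, higher or lower. It gave 18 members an unadjusted p below 0.05. The share of all genes with such a p was not counted in this fit, so the 18 cannot be set against it.

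The third comparison, Gel against PBS, is the one that bears on the hydrogel. All 82 members were negative, at a median of -0.32 on the log2 scale against -0.01 over all genes. edgeR and DESeq2 called 0 of them, and none had an unadjusted p below 0.05 by either tool; the edgeR adjusted p was 0.987 in each. In this comparison edgeR called 0% of all tested genes higher and 0% lower, and DESeq2 0.0691% higher and 0.300% lower. An unadjusted p below 0.05 with a negative difference was found in 3.77% of all tested genes by edgeR and 4.24% by DESeq2. In 0 of 82 members did all Gel values lie below all PBS values, against 5.15% of all tested genes, since Gel 2 and Gel 3 were above PBS 1 and PBS 2 nearly everywhere.

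The direction of this comparison rested on PBS 3. Without it the median was 0.16, 81 of 82 members were positive, and edgeR called 0 while 1 member had an unadjusted p below 0.05. Over all genes, 2.86% had such a p with a positive difference. The most negative members, Rps27l (-0.57 ± 0.33), Rps27 (-0.53 ± 0.36) and Rps20 (-0.52 ± 0.33), all had a larger gap between PBS 3 and its group than the median member, and became -0.02, 0.20 and 0.09 without it. Rpl7l1, with -0.07 ± 0.14, was the least negative. The difference between Gel and PBS in these genes did not exceed the spread between libraries.

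The gap between PBS 3 and its group followed gene length within the members as well as outside them. Relative to the mean of PBS 1 and 2, all 82 members were higher in PBS 3 by a median of 1.13 on the log2 scale, from 0.41 in Rpl7l1 to 1.58 in Rps27. Spearman's rho between this gap and gene length was -0.48 over the 82 members, the same value as over the 17280 other genes; genes of 1 library are not independent, and no test is given. The 3 largest gaps were in Rps27 (346 bases), Rpl39 (413 bases, 1.55) and Rpl35a (598 bases, 1.45), and the smallest after Rpl7l1 in Rpl22 (2208 bases, 0.76) and Rpl4 (1558 bases, 0.76).

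At equal length the members were still higher than the other genes. Among gene models up to 500 bases, the median gap of PBS 3 was 1.27 in 13 members and 0.70 in 142 other genes; from 1500 to 2500 bases it was 1.01 in 14 members and 0.28 in 3044 other genes. Each of the 82 members lay above the median of the other genes in its own length class. Between PBS 1 and 2 and Normoxic the other genes had no such slope: their class medians ran from -0.05 to 0.02, while those of the members ran from 0.24 to 0.38. The highest was in a class of 3 members, and the next was 0.30.

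**Figure D4:**
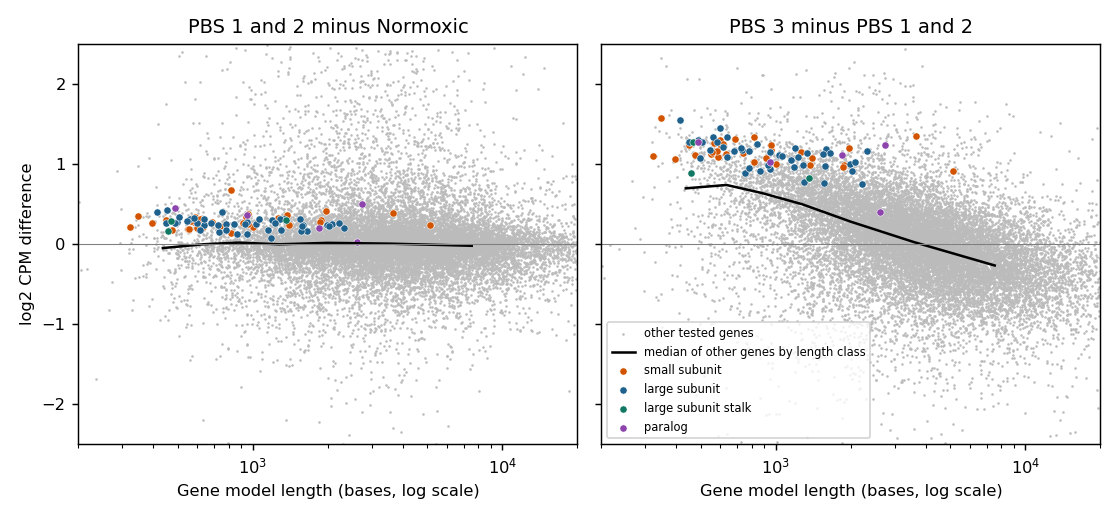
Difference in log2 CPM (y axis) against gene model length in bases (x axis, log scale) for other tested genes (grey), their median by length class (black line) and the members by role (colours), for PBS 1 and 2 minus Normoxic (left) and PBS 3 minus PBS 1 and 2 (right). The black line is flat on the left and slopes down on the right, and in both panels the members lie above it.

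A value per library that takes length into account was formed after the values were seen: the median over members of their log2 CPM relative to Normoxic, each minus the median of the other genes of its length class. The 3 Normoxic libraries had 0.02, -0.03 and 0.00, the PBS libraries 0.31, 0.20 and 0.79, and the Gel libraries 0.09, 0.46 and 0.41. All 6 OIR libraries were above the Normoxic ones, with a mean of 0.43 ± 0.31 (SD, n = 3) in PBS and 0.32 ± 0.20 in Gel against 0.00 ± 0.02 (exact two-sided permutation p = 0.1 for each, the smallest possible; adjusted 0.15). Gel and PBS differed by -0.11 in this value (exact permutation p = 0.7).

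The small subunit was slightly higher relative to the large subunit in the OIR libraries. The ratio of their counts was 0.640, 0.642 and 0.635 for the Normoxic libraries, 0.651, 0.659 and 0.683 for the PBS libraries, and 0.644, 0.660 and 0.660 for the Gel libraries. Every OIR library was above the Normoxic range, by less in Gel 1 than elsewhere. This ratio takes no account of gene length, and the part of the length trend in it was not tested. The mean was 0.664 ± 0.017 in PBS against 0.639 ± 0.003 in Normoxic (exact permutation p = 0.1, the smallest possible; adjusted 0.15), and 0.655 ± 0.009 in Gel (exact permutation p = 0.1 against Normoxic).

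The members with a TOP tract at the annotated start had medians close to those of the rest. Their median log2 fold change in PBS against Normoxic was 0.76 over 13 genes and 0.75 over the other 48 matched members, and in Gel against Normoxic 0.42 over both. Without PBS 3 the medians in PBS against Normoxic were 0.27 and 0.26. The 25 members with CCGGAAG in the window had 0.79 and the 36 without it 0.73, or 0.27 and 0.26 without PBS 3. No test of these differences was made.

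Other genes that share the TOP tract or serve the same machine moved less as a list. Their gene models were also longer, with a median of 1754 bases against 850.5 in the members. Of 24 TOP partners and translation factors, 23 had a positive log2 fold change in PBS against Normoxic, at a median of 0.45. edgeR called 0 of them, 15 had an unadjusted p below 0.05, and DESeq2 called 2. Tpt1, the translationally controlled tumor protein and a classic TOP message, read 320, 295 and 306 CPM in Normoxic, 409, 423 and 835 CPM in PBS, and 328, 511 and 488 CPM in Gel (0.88 ± 0.27 for PBS, edgeR adjusted p = 0.0889). Eef1b2, a nucleotide exchange factor for elongation factor 1, had 0.76 ± 0.26 (adjusted p = 0.123). Not every gene followed this order: Pabpc1, the poly(A)-binding protein, read 181, 200.5 and 220.1 CPM in Normoxic, 243, 233 and 219 CPM in PBS, and 262, 240 and 243 CPM in Gel, so its PBS 3 value lay inside the Normoxic range. The per-library medians of this list, relative to Normoxic, were 0.22, 0.17 and 0.88 in PBS and 0.02, 0.39 and 0.35 in Gel, so it too was above Normoxic in PBS 1 and 2 and level in Gel 1. Those of the members were 0.30, 0.23 and 1.36 in PBS, so within PBS the lists lay farthest apart in PBS 3.

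Fau and Rack1 are ribosomal genes outside the naming rule and belong to the list of TOP partners. Fau, which encodes Rps30 fused to a ubiquitin-like protein, read 137, 142 and 135 CPM in Normoxic, 179, 162 and 340 CPM in PBS, and 131, 214 and 194 CPM in Gel. Rack1, a scaffold of the small subunit, had a log2 fold change of 0.53 ± 0.23 in PBS against Normoxic, and neither gene passed the test.

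Genes that build ribosomes had smaller differences. The 38 nucleolar assembly genes, with a median gene model of 2971 bases, had a median of 0.12 on the log2 scale in PBS against Normoxic, with 28 positive. Neither edgeR nor DESeq2 called any of the 38, and 5 had an unadjusted p below 0.05 by edgeR. Their medians by library were 0.06, 0.05 and 0.24 in PBS 1, 2 and 3, where those of the ribosomal proteins were 0.30, 0.23 and 1.36. The 15 tested host genes of small nucleolar RNAs, several of them TOP messages, had a median of 0.45 with 13 positive, and Snhg18 rose in PBS (0.97 ± 0.25, edgeR adjusted p = 0.0469). In the mTORC1 list 1 of 25 genes was called: Eif4ebp1, which encodes the translation repressor 4E-BP1, read 1.06, 1.29 and 1.60 CPM in Normoxic and 6.79, 3.95 and 5.35 CPM in PBS, and rose by 2.03 ± 0.27 on the log2 scale (edgeR adjusted p = 0.00217). The list as a whole had a median of 0.10, with 13 of 25 positive.

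The 20 cytosolic tRNA synthetases had a median of 0.23 in PBS and 0.25 in Gel against Normoxic. Gars rose in PBS (0.41 ± 0.11, edgeR adjusted p = 0.0433), and Gars, Aars and Tars, the enzymes for glycine, alanine and threonine, rose in Gel, the first by 0.60 ± 0.11 (edgeR adjusted p = 0.0213). Aars and Tars passed by little (0.58 ± 0.12, adjusted p = 0.0422, and 0.56 ± 0.12, adjusted p = 0.0434), and each passed in 9 of 18 alternatives. By library, the medians of the list relative to Normoxic were 0.18, 0.18 and 0.28 in PBS and 0.25, 0.32 and 0.31 in Gel. Aars read 315, 308 and 292 CPM in PBS and 436, 322 and 339 CPM in Gel, so in this gene Gel 1 was the highest of the 6.

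**Figure D5:**
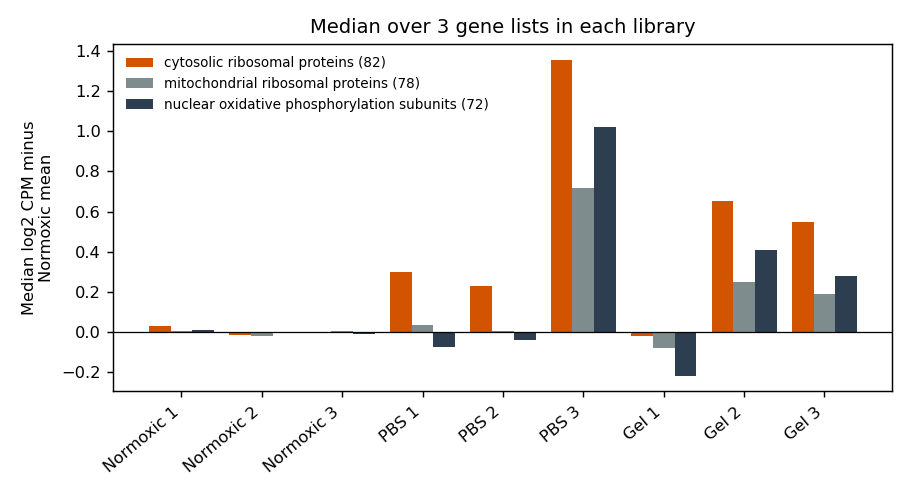
Median log2 CPM minus the Normoxic mean (y axis) in each library for cytosolic ribosomal proteins (82 genes), mitochondrial ribosomal proteins (78) and nuclear subunits of oxidative phosphorylation (72). In PBS 1 and 2 only the cytosolic list is clearly off 0 (0.30 and 0.23), and in PBS 3, Gel 2 and Gel 3 all 3 lists are above it.

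Nuclear genes for other large complexes were compared with the members, of which only the first list is as short. The 72 nuclear genes of oxidative phosphorylation have a median gene model of 760.5 bases, and the 78 mitochondrial ribosomal protein genes one of 1505.5 bases. Over all 3 PBS libraries their median log2 fold changes against Normoxic were 0.39 (72 of 72 positive) and 0.31 (76 of 78 positive), and neither edgeR nor DESeq2 called any of them. By edgeR, 2 of the 72 and 9 of the 78 had an unadjusted p below 0.05, against 78 of the 82 cytosolic ribosomal protein genes. Of all tested genes, 12.3% had such a p with a positive difference and 9.03% with a negative one. By library, the oxidative phosphorylation list stood at -0.08, -0.04 and 1.02 in PBS and at -0.22, 0.41 and 0.28 in Gel, and the mitochondrial ribosome at 0.03, 0.00 and 0.72 in PBS and at -0.08, 0.25 and 0.19 in Gel. The cytosolic ribosomal proteins stood at 0.30, 0.23 and 1.36 in PBS and at -0.02, 0.65 and 0.55 in Gel.

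The distance between the cytosolic ribosomal proteins and the oxidative phosphorylation genes was also taken by library, after these medians were seen. The Normoxic libraries had 0.02, -0.02 and 0.01, the PBS libraries 0.37, 0.27 and 0.33, and the Gel libraries 0.20, 0.24 and 0.27. In this distance PBS 3 lay between PBS 1 and PBS 2. Taken from the mitochondrial ribosome list instead, the distance was 0.26, 0.22 and 0.64 in PBS and 0.06, 0.40 and 0.36 in Gel, with PBS 3 the highest and Gel 1 the lowest of the 6. This second distance was not tested. The mean distance from the oxidative phosphorylation genes was 0.33 ± 0.05 (SD, n = 3) in PBS, 0.24 ± 0.04 in Gel and 0.00 ± 0.02 in Normoxic. Against Normoxic, the exact two-sided permutation p was 0.1 for PBS and for Gel, the smallest possible (adjusted 0.15). In the distance from the oxidative phosphorylation genes, Gel lay below PBS by a difference of -0.09, with Gel 3 above PBS 2 (exact permutation p = 0.2).

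Markers of other cells moved with the groups too, and their part in these results was not tested. The 8 microglia and macrophage markers summed to 37.9 to 43.7 CPM in Normoxic, 112 to 166 CPM in PBS and 84.1 to 115 CPM in Gel, and 5 of the 8 were called higher in PBS. The 5 proliferation markers summed to 0.849 to 2.22 CPM in Normoxic, 10.1 to 17.3 CPM in PBS and 5.76 to 6.90 CPM in Gel, with 4 of 5 called higher in PBS. In Gel 1 the microglial sum, at 84.1 CPM, was above the Normoxic range while the share of the ribosomal proteins was not. The 6 endothelial markers summed to 259 to 307 CPM in Normoxic, 248 to 312 CPM in PBS and 299 to 313 CPM in Gel, with 4 called higher and 1 lower in PBS. The fibroblast and sclera markers summed to 25.0 to 29.7 CPM in Normoxic, 53.0 to 71.2 CPM in PBS and 35.9 to 51.8 CPM in Gel, and the 3 of 5 that could be tested were called higher in PBS.

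Some markers of retinal neurons and glia were lower in PBS. The 6 markers of other retinal neurons summed to 4317 to 4341 CPM in Normoxic, 3270 to 3517 CPM in PBS and 3424 to 3930 CPM in Gel, with 3 of 6 called lower in PBS. The 6 Muller glia markers summed to 4255 to 4708 CPM in Normoxic, to 3366, 4059 and 4500 CPM in PBS 1, 2 and 3, and to 3744 to 4903 CPM in Gel, with 2 of 6 called lower in PBS. The 6 markers of pigment epithelium and choroid summed to 22.2 to 90.5 CPM in Normoxic, to 55.7, 54.2 and 201 CPM in PBS 1, 2 and 3, and to 137 to 215 CPM in Gel. The 5 red cell genes summed to 46.1 to 50.5 CPM in Normoxic, to 153, 46.6 and 198 CPM in PBS 1, 2 and 3, and to 31.1 to 46.1 CPM in Gel, so they were high in PBS 1 as well as PBS 3. The 6 long noncoding RNAs, most of them held in the nucleus, summed to 2831 to 3579 CPM in Normoxic, to 3211, 3474 and 1325 CPM in PBS 1, 2 and 3, and to 3702, 2418 and 2006 CPM in Gel 1, 2 and 3. PBS 3 was lowest in that sum and Gel 1 highest. The median gene model of these RNAs was 10858.5 bases, and the part of the length trend in their sum was not tested.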

How the data were processed

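Bulk RNA-seq of mouse retina was deposited as a table of whole-number counts per gene and a table of FPKM values for the same 9 libraries. Per the submitters' processing notes, the build was GRCm39 and the tools were Bowtie2, RSEM 1.3.1 and DESeq2 1.4.5; the rounding and filtering of the deposited counts, the strand setting and any selection for poly(A) are not given in the sources used. The authors' FPKM values were used only for levels between genes. The batch date in the labels is one and the same throughout. The members and the gene lists were chosen with earlier results of these data known.

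Counts were scaled with edgeR 4.0.16 (TMM), low genes were dropped by filterByExpr (minimum count 10), and 1 quasi-likelihood model with the group as its only term was fitted to all 9 libraries, with Benjamini-Hochberg adjustment over 17362 genes and a threshold of 0.05. CPM divides by all gene counts of a library, and log2 CPM used TMM and a prior count of 2. Alternatives were DESeq2 1.42.0, limma-voom (limma 3.58.1), other scaling, no filter, a loess offset on gene length (span 0.5) fitted on genes that were not members, a replicate block, fits of only the groups compared, and leaving out each library. The fits were tested on simulated data. Genes named were the called members, a fixed panel, the extremes of level, fold change and PBS 3 deviation, and the smallest p-values of the other lists. Reads shared with near-identical copies cannot be placed with certainty; the 9 rows named as ribosomal protein pseudogenes held 1849 counts against 4612019 in the members. Promoter sequences came from RefSeq (GRCm38.p6), a build other than that of the files, and were matched by Entrez number.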

Additional observations from a re-analysis of the deposited data

How the results depend on the processing

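In PBS against Normoxic, edgeR's 0 called members became 17 with DESeq2, 15 with the length trend removed, 18 with no filter and 1 with the replicate block; they stayed at 0 with size factors of relative log expression, library totals alone, limma-voom or only the groups compared. Leaving out each library gave 0 to 6 calls (6 without PBS 2, 1 without PBS 1) and medians of 0.26 to 0.93, the lowest without PBS 3. Of all tested genes, 1184 of 17713 were called, higher or lower, without PBS 2 and 786 of 17674 without PBS 1. With the replicate block this was 1050 of 17362. The fit without the length trend and without PBS 3, added after the data were seen, gave 4 calls and a median of 0.25. These calls were 4.88% of the members, where 4.75% of all genes were called higher. In Gel against PBS, calls were 0 under every alternative, and the median ran from -0.52 to 0.16 over the left-out libraries. Without PBS 3 it turned to 0.16, and to 0.0732 with the length trend also removed, where Rps27, Rps20 and Rpl7l1 stood at 0.0704, 0.0813 and 0.0579. Over the left-out libraries, these 3 genes ran from -0.79 to 0.20, from -0.76 to 0.0858 and from -0.16 to 0.0786, and Rpl7l1 also turned positive without Gel 1 (0.02). The difference in share between Gel and PBS ran from -0.618 to 0.132 percentage points, positive without PBS 3. In Gel against Normoxic, calls were 1 with the length trend removed, 19 with PBS 3 left out as well, and 0 to 5 over the left-out libraries (5 without PBS 3). In the fits with 1, 19 and 5 calls, 1.90%, 3.43% and 2.80% of all genes were called higher. All other alternatives to these 9 results kept their direction and their calls; the cause of the changes was not tested.

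The labels state no link between same-numbered libraries beyond the number. The correlation of their deviations from the group means ran from -0.209 (PBS 2 with Gel 2) to 0.362 (PBS 3 with Gel 3). Between libraries of different numbers it ran from -0.507 (PBS 3 with Gel 1) to 0.306 (PBS 2 with Gel 1). With the replicate block the median in PBS against Normoxic was 0.66 and the 1 call was Rps27a. The share of counts gave 0.735, -0.358 and 0.377 percentage points under the block, with sign-flip p-values of 0.25, 0.75 and 0.5 (exact, smallest possible 0.25). With 3 libraries a group, an exact test cannot fall below 0.1, and groups of 3 were not searched for outliers. Eif4ebp1 passed edgeR's, DESeq2's or limma's threshold in 18 of 18 alternatives, Snhg18 in 7 of 18, and Gars in 6 of 18 in PBS and 12 of 18 in Gel against Normoxic, where Aars and Tars each passed in 9 of 18.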
